A study of Homo sapiens with 12 samples.

Results

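Immunoglobulin is the antigen receptor and secreted product of B cells, and 8 genes that encode its chains or help to assemble it were followed in Raji, a B-cell line from a human Burkitt lymphoma. They were matched by gene identifier and symbol among 60707 genes and are IGHM, IGHD, IGKC, IGLL5, IGLL1, VPREB3, JCHAIN and MZB1. The series comprised 12 libraries of ribosomal RNA-depleted total RNA. Cells in a GFP-high or a GFP-low gate had received either DMSO, the vehicle, or FX1, a compound that inhibits BCL6, the repressor that maintains the germinal centre B-cell programme. Every library is labelled 24 h. Each of the 4 groups, GFP-high DMSO, GFP-high FX1, GFP-low DMSO and GFP-low FX1, held 3 libraries. All 12 carried the same genotype label, Smarca4+/+, and came from a degron system in which auxin triggers loss of SMARCA4, the catalytic motor of SWI/SNF chromatin remodellers. The design text compares FX1 with no FX1 when SMARCA4 is degraded, but the labels do not tie GFP to the amount of SMARCA4, and the FX1 dose is not given in the sources used here. No label states that replicates were separate cultures, so p-values reflect only library-to-library spread, possibly technical.

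An immunoglobulin molecule joins paired heavy chains to paired kappa or lambda light chains, and its heavy chain class is set by the constant region that follows the rearranged variable segments. IGHM and IGHD encode the constant regions of IgM and IgD, which a mature B cell makes from the same primary transcript by alternative processing, and IGKC encodes the constant region of the kappa chain. IGLL1 (lambda5) and VPREB1 form the surrogate light chain, which pairs with the mu chain in precursor B cells, and VPREB3 is a related protein that binds mu chains in the endoplasmic reticulum. JCHAIN links IgM and IgA into polymers, and MZB1 is an endoplasmic reticulum protein that promotes the folding and secretion of IgM.

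Library totals lay between 20454028 and 42556661 gene counts. Levels are CPM, counts scaled to a common library size by TMM, and comparisons between genes use CPM per kilobase of exon (RPKM). The B-cell identity of the line was checked on 6 markers, all of them detected, with a summed level of 1788 to 2667 CPM over the libraries. Of the markers of other cell types, CD8A, S100A8 and KRT18 had no count in any library. The summed T and NK cell markers reached at most 7.51 CPM, the myeloid ones at most 6.39 CPM, and the epithelial and stromal ones at most 20.7 CPM, most of it from COL1A1. Of the 6 plasma cell markers, SDC1 had 0 to 7 counts, too few to be tested. Its mean was 0 CPM in both DMSO groups, 0.0524 CPM in GFP-high FX1 and 0.105 CPM in GFP-low FX1. XBP1 (-0.25 and -0.42) and IRF4 (-1.44 and -2.28) fell with FX1 in GFP-high and GFP-low cells. TNFRSF17 was not called in GFP-high cells (-0.65, edgeR adjusted p = 0.075) and fell in GFP-low cells (-0.91, adjusted p = 0.011). SLAMF7 rose (1.63 and 1.34), and PRDM1 rose with FX1 from a mean of 19.5 to 80.4 CPM in the GFP-high gate and from 38.3 to 124 CPM in the GFP-low gate. The part of these genes in the changes of the 8 was not tested. In bulk RNA, fewer cells with a transcript and less transcript per cell cannot be told apart.

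The heavy chain genes lie on chromosome 14 in hg38, IGHM at chr14:105851705-105856218 and IGHD at chr14:105836765-105845677, both on the minus strand. IGKC is at chr2:88857161-88857683, JCHAIN at chr4:70655541-70681817 and MZB1 at chr5:139387467-139390081, also on the minus strand. The other 3 genes are on chromosome 22. IGLL5 is on the plus strand at chr22:22887780-22896111 within the lambda locus. IGLL1, at chr22:23573125-23580302, and VPREB3, at chr22:23752743-23754425, are on the minus strand and 172440 bases apart. Values cover all annotated exons of a gene, untranslated regions included where the annotation has them.

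VPREB3 and IGLL1 showed the lowest ratios of FX1 to DMSO among the 8 genes, and the 100 bases before their RefSeq start sites are therefore printed (GRCh38.p14, VPREB3 at chr22:23754426-23754525 and IGLL1 at chr22:23580291-23580390, 5′ to 3′ on the gene's strand). Capitals mark the octamer, the site bound by POU2F1 and POU2F2 in immunoglobulin promoters, searched as ATGCAAAT on both strands and printed here as its reverse complement.
VPREB3: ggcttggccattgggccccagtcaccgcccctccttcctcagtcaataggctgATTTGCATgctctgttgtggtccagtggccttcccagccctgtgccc
IGLL1: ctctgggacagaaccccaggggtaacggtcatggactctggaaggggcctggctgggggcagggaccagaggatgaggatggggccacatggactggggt
The octamer of VPREB3 lay 47 to 40 bases before the start site. Windows from 250 bases before to 50 after the start were matched for 4 of the 8 genes, JCHAIN, MZB1, IGLL1 and VPREB3, and the octamer was found in that of VPREB3 alone. Among all 35116 promoter windows, 1.77% held it. The E-box CAGCTG was found in the window of IGLL1, 10 to 15 bases after the start, and 17.9% of all windows held this motif. An EBF1-type palindrome, present in 1.21% of all windows, was in none of these 4. These matches describe letters in the windows and do not show binding.

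With FX1, the major chains IGHM and IGKC rose, by 1.59-fold and 1.61-fold in GFP-high and by 1.55-fold and 1.42-fold in GFP-low cells, IGHD fell, and VPREB3 and IGLL1 fell at least 7.31-fold in both gates. JCHAIN was lower in GFP-low than in GFP-high cells under either treatment. MZB1, as counted, moved by at most 0.09 on the log2 scale in the 5 comparisons. In GFP-high cells 5 of the 8 genes were higher and 3 lower with FX1 (edgeR, adjusted p under 0.05), beside a background of 68.4% of the 17859 genes tested (33.8% higher and 34.6% lower). In GFP-low cells 3 were higher, 4 lower and 1 was not called, beside a background of 68% (33.7% higher and 34.3% lower). Library ranges of the FX1 and DMSO groups did not overlap for 8 genes in GFP-high cells and for 7 in GFP-low cells, and the same held for 70.2% and 69.6% of all genes tested. The median log2 change of the 8 genes was 0.07 in GFP-high and -0.21 in GFP-low cells, beside -0.01 over all genes tested in each gate. Being called was thus common among all genes, and the sizes tell the genes apart: of all genes tested, 11.1% in GFP-high and 9.04% in GFP-low cells were called and at least 2-fold lower with FX1.

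**Figure D1:**
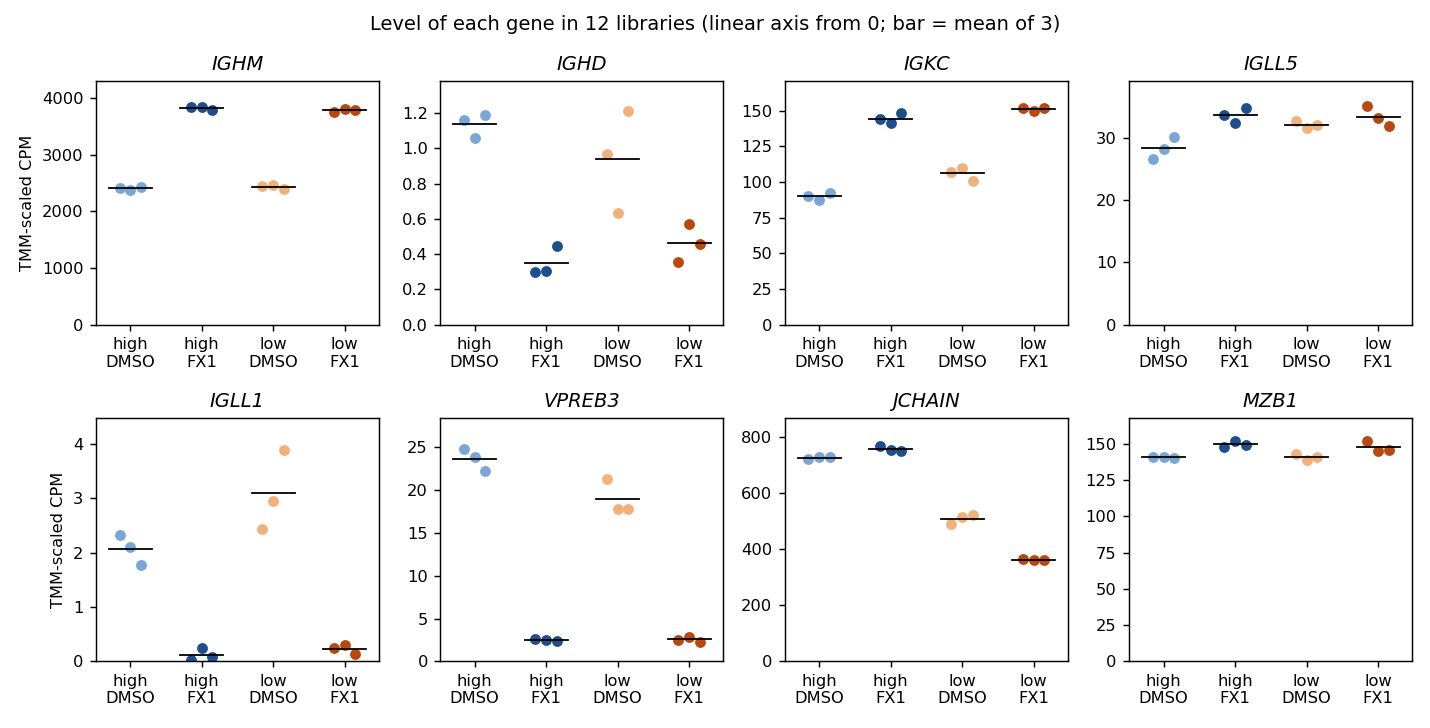
TMM-scaled CPM (linear axes starting at 0) of the 8 genes in each of the 12 libraries, by GFP gate and treatment; points are libraries and bars the means of 3. IGHM and IGKC stood higher and IGHD, IGLL1 and VPREB3 lower with FX1 in both gates, whereas JCHAIN was lowest in GFP-low FX1, at 360 to 364 CPM.

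IGHM was by far the most abundant of the 8. Its level was 2404, 2377 and 2424 CPM in the GFP-high DMSO libraries and 3830, 3833 and 3789 CPM in the GFP-high FX1 libraries. In GFP-low cells it was 2444, 2458 and 2391 CPM under DMSO and 3742, 3806 and 3789 CPM under FX1. All 6 FX1 libraries lay above all 6 DMSO libraries, and the gates overlapped under either treatment. IGHM rose 1.59-fold with FX1 in GFP-high cells (log2 change 0.67 ± 0.01 SE, edgeR adjusted p = 4.3e-150) and 1.55-fold in GFP-low cells (0.64 ± 0.01, adjusted p = 1.9e-145). The difference of the FX1 effects between gates missed the threshold (-0.03, edgeR adjusted p = 0.083), as did the gate differences under DMSO (0.02, adjusted p = 0.17) and FX1 (-0.01, adjusted p = 0.22). After each library's dependence on GC content and transcript length (the GC and length trend) was taken out, these 3 values became -0.19, -0.16 and -0.36, all called (adjusted p = 1.9e-26, 2.4e-33 and 1.1e-86). The difference was also called by DESeq2 (-0.05, adjusted p = 0.023), with its size factors in edgeR (-0.05, adjusted p = 0.015) and with mitochondrial and the most abundant genes left out of the scaling (-0.07, adjusted p = 2.1e-05). It was likewise called without any 1 of the GFP-high DMSO libraries (-0.07 to -0.09, adjusted p = 8.3e-06 to 0.00027), without GFP-low DMSO replicate 3 (-0.05, adjusted p = 0.01) or without GFP-low FX1 replicate 2 (-0.04, adjusted p = 0.044). IGHM took 0.223% ± 0.00243 (SD, n = 3) of all gene counts in GFP-high DMSO and 0.401% ± 0.00458 in GFP-low FX1.

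IGHD, in contrast, was at the edge of detection and fell. The 3 libraries held 26, 34 and 28 counts in GFP-high DMSO and 11, 9 and 15 in GFP-high FX1. Those of GFP-low held 27, 20 and 30 counts under DMSO and 16, 17 and 10 under FX1. As levels these were 1.16, 1.06 and 1.19 CPM against 0.299, 0.307 and 0.444 CPM in GFP-high cells, and 0.97, 0.634 and 1.21 against 0.355, 0.572 and 0.459 CPM in GFP-low cells. The treatment groups did not overlap within either gate, but the lowest GFP-low DMSO library was close to the highest FX1 library. The log2 change with FX1 was -1.68 ± 0.35 (edgeR adjusted p = 7.6e-06) in GFP-high and -1.03 ± 0.35 (adjusted p = 0.0059) in GFP-low cells. From summed counts IGHD was 3.22-fold lower (95% exact Clopper-Pearson interval 2.15 to 4.91) and 2.06-fold lower (1.4 to 3.06), intervals that cover counting error only. The call in GFP-low cells was lost without GFP-low DMSO replicate 3 (-0.81, adjusted p = 0.061) or without GFP-low FX1 replicate 1 (-0.82, adjusted p = 0.062). The difference between gates was 0.65 ± 0.51 and not called (adjusted p = 0.36), so these counts do not show whether the gates responded unequally.

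Within a library the ratio of both heavy chain rows does not depend on scaling. Per 100 IGHM counts, IGHD had 0.0474 ± 0.00229 counts (SD, n = 3) in GFP-high DMSO and 0.00919 ± 0.00221 in GFP-high FX1. In GFP-low cells it had 0.0387 ± 0.0125 under DMSO and 0.0122 ± 0.00277 under FX1. The ranges of the treatments were separate in each gate, 0.0448 to 0.0491 against 0.00781 to 0.0117 and 0.0258 to 0.0507 against 0.00949 to 0.015. IGHD counts were thus few beside IGHM counts in every library, and fewer in each FX1 library than in any DMSO library.

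IGKC, the kappa constant region, rose together with IGHM. It stood at 90.1, 87.5 and 92.4 CPM in GFP-high DMSO and at 144, 141 and 148 CPM in GFP-high FX1. In GFP-low cells the levels were 107, 110 and 101 CPM under DMSO and 152, 150 and 152 CPM under FX1. No treatment groups overlapped, and GFP-low DMSO lay wholly above GFP-high DMSO. IGKC rose 1.61-fold with FX1 in GFP-high cells (0.69 ± 0.026, edgeR adjusted p = 2.7e-70) and 1.42-fold in GFP-low cells (0.51 ± 0.025, adjusted p = 5.1e-52). The smaller rise in GFP-low cells passed the test of the difference (-0.18 ± 0.037, adjusted p = 2.2e-05). Under DMSO, IGKC was 1.18-fold higher in GFP-low cells (0.24 ± 0.028, adjusted p = 1.4e-14).

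Per 100 IGHM counts, IGKC had 3.75 ± 0.0643 (SD, n = 3) in GFP-high DMSO and 3.79 ± 0.121 in GFP-high FX1, with overlapping ranges. In GFP-low cells the values were 4.36 ± 0.112 under DMSO and 4 ± 0.0683 under FX1, with separate ranges. As counted, this ratio differed with FX1 by less than the spread between libraries in GFP-high cells and was lower with FX1 in GFP-low cells. As counted, the log2 changes were 0.69 for IGKC and 0.67 for IGHM in GFP-high cells, and 0.51 and 0.64 in GFP-low cells. Once the GC and length trend was taken out they were 0.78 and 0.55, and 0.54 and 0.36, so that IGKC then rose more than IGHM in GFP-low cells too. The difference between the genes was not tested.

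**Figure D2:**
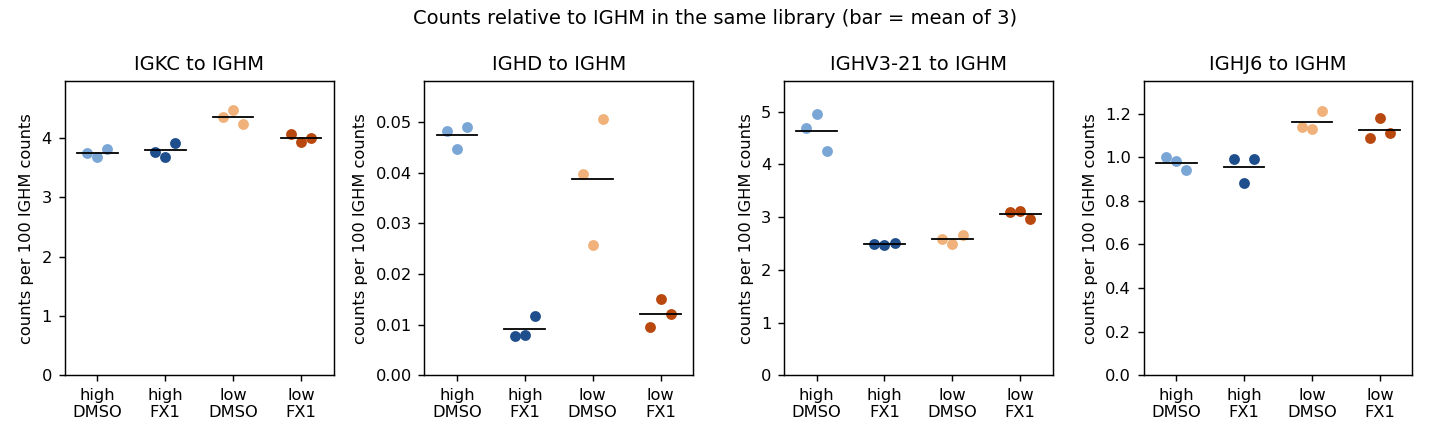
Counts of IGKC, IGHD, the variable segment IGHV3-21 and the joining segment IGHJ6 per 100 IGHM counts of the same library, in 12 libraries; points are libraries and bars the means of 3. The mean IGHD ratio was 0.0474 without and 0.00919 with FX1 in GFP-high cells, whereas the IGKC ratio stayed between 3.68 and 4.47 in every library.

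IGLL5 encodes an immunoglobulin lambda-like polypeptide and lies at the lambda locus, where its exons hold all 460 bases of IGLC1 and 122 bases of IGLJ1. IGLC1 had 0 counts in all 12 libraries and IGLJ1 had 1 to 17, so reads of IGLL5 and of these 2 genes cannot be told apart in the shared bases. IGLL5 stood at 26.6, 28.1 and 30.1 CPM in GFP-high DMSO and at 33.7, 32.4 and 34.7 CPM in GFP-high FX1. In GFP-low cells it stood at 32.6, 31.6 and 32.1 CPM under DMSO and at 35.1, 33.1 and 31.8 CPM under FX1. GFP-high DMSO lay below the other groups, which overlapped in part. With FX1, IGLL5 rose in GFP-high cells (0.25 ± 0.05, edgeR adjusted p = 3.2e-06) and was not called in GFP-low cells (0.07 ± 0.049, adjusted p = 0.23), where it became -0.15 (adjusted p = 0.0054) once the GC and length trend was taken out. The difference passed narrowly (-0.18 ± 0.07, adjusted p = 0.033). It was lost without GFP-high FX1 replicate 1 or 3, GFP-low DMSO replicate 1, or GFP-low FX1 replicate 2 or 3 (-0.16 to -0.18, adjusted p = 0.051 to 0.1). With all libraries it was lost without a low-count filter (-0.19, adjusted p = 0.055) and with at least 50 counts required in 3 libraries (-0.16, adjusted p = 0.052). Under DMSO, IGLL5 was higher in GFP-low than in GFP-high cells (0.18 ± 0.052, adjusted p = 0.0018), a call lost when that trend was taken out (0.02, adjusted p = 0.85).

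VPREB3 fell most among the genes with ample counts. Its level was 24.7, 23.8 and 22.2 CPM in GFP-high DMSO and 2.64, 2.53 and 2.34 CPM in GFP-high FX1. The GFP-low libraries had 21.3, 17.8 and 17.8 CPM under DMSO and 2.53, 2.89 and 2.3 CPM under FX1. Every FX1 library was far below every DMSO library, and the 2 gates overlapped under FX1. VPREB3 was 9.4-fold lower with FX1 in GFP-high cells (-3.23 ± 0.096, edgeR adjusted p = 5.7e-91) and 7.31-fold lower in GFP-low cells (-2.87 ± 0.099, adjusted p = 1.1e-78). The difference between these effects missed the threshold (0.36 ± 0.16, adjusted p = 0.071). It passed without GFP-low DMSO replicate 1 (0.45, adjusted p = 0.024) and with at least 50 counts required in 3 libraries (0.38, adjusted p = 0.04). Under DMSO, VPREB3 was lower in GFP-low cells (-0.31 ± 0.07, adjusted p = 4.6e-05), and under FX1 the gate difference was not called (0.05 ± 0.14, adjusted p = 0.8).

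IGLL1, the lambda5 chain, had few counts and fell as well. Its 3 libraries held 52, 67 and 42 counts in GFP-high DMSO and 1, 7 and 3 in GFP-high FX1. In GFP-low cells they held 68, 93 and 96 counts under DMSO and 11, 9 and 3 under FX1. The corresponding levels were 2.32, 2.1 and 1.78 CPM against 0.0272, 0.239 and 0.0889 CPM, and 2.44, 2.95 and 3.88 CPM against 0.244, 0.303 and 0.138 CPM. Only the 6 DMSO libraries exceeded the low-count limit of 0.348 CPM, so IGLL1 was tested because of the groups in which it was high. The log2 change with FX1 was -4.17 ± 0.36 in GFP-high cells (edgeR adjusted p = 3.8e-24) and -3.67 ± 0.3 in GFP-low cells (adjusted p = 6.8e-27). From summed counts, 161 against 11 and 257 against 23, IGLL1 was 18.8-fold lower (95% exact interval 10.2 to 38.3) and 12.8-fold lower (8.36 to 20.6). The intervals overlap, and the test of the difference was not passed (0.50 ± 0.57, adjusted p = 0.56).

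IGLL1 was higher in GFP-low than in GFP-high cells under DMSO (0.57 ± 0.21, edgeR adjusted p = 0.019). This call was lost without GFP-high DMSO replicate 2 (0.58, adjusted p = 0.051) or 3 (0.48, adjusted p = 0.093) and without GFP-low DMSO replicate 3 (0.39, adjusted p = 0.21), by DESeq2 (0.57, adjusted p = 0.057) and after taking out the GC and length trend (0.31, adjusted p = 0.24). Under FX1 the gates differed by 1.07 ± 0.54, not called (adjusted p = 0.077), and called without GFP-high FX1 replicate 2 (1.99, adjusted p = 0.0094) or GFP-low FX1 replicate 3 (1.25, adjusted p = 0.048). IGLL1 shares 43 exon bases with an antisense gene that had 0 or 1 counts. Since it also resembles the lambda constant genes in sequence, and the handling of reads with several matches is not given in the sources used here, its exact counts are uncertain.

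VPREB1, the other surrogate light chain gene, fell in the same treatment. It stood at 2.95, 2.94 and 3.78 CPM in GFP-high DMSO and 1.01, 1.09 and 1.18 CPM in GFP-high FX1. In GFP-low cells it had 4.1, 4.47 and 4 CPM under DMSO and 0.866, 0.942 and 0.872 CPM under FX1. The log2 change with FX1 was -1.55 ± 0.2 in GFP-high (edgeR adjusted p = 2.8e-13) and -2.23 ± 0.2 in GFP-low cells (adjusted p = 9.9e-24). Both surrogate light chain genes and the related VPREB3 were thus lower with FX1 in each gate, at levels well below those of IGHM and IGKC.

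Nearby genes on chromosome 22 were then read, in a window chosen after the values of IGLL1 and VPREB3 were seen. Between these genes and within 100000 bases of either side, 9 other genes were tested. With FX1, 3 were higher and 2 lower in GFP-high cells, and 4 higher and 3 lower in GFP-low cells. Of all genes tested, 33.8% were higher and 34.6% lower in GFP-high cells, and 33.7% and 34.3% in GFP-low cells. The median log2 changes of the 9 were 0.10 and 0.21, beside -0.01 over all genes in each gate. Next to VPREB3, ZNF70 changed by 0.17 and 0.31 and CHCHD10 by 0.13 and 0.21, all higher. SMARCB1, a SWI/SNF core subunit, rose by 0.10 and 0.26. The genes that fell in both gates were RGL4 (-2.20 and -1.39), at a mean log2 CPM of -1.48, and DERL3 (-1.67 and -0.75), which encodes a protein of endoplasmic reticulum-associated degradation.

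JCHAIN had a pattern of its own among the 8, with the order GFP-low FX1, GFP-low DMSO, GFP-high DMSO, GFP-high FX1 from low to high. It stood at 723, 730 and 727 CPM in GFP-high DMSO and at 769, 753 and 751 CPM in GFP-high FX1. The GFP-low libraries had 488, 513 and 523 CPM under DMSO and 364, 360 and 360 CPM under FX1. No ranges overlapped. JCHAIN was 1.43-fold lower in GFP-low than in GFP-high cells under DMSO (-0.52 ± 0.014, edgeR adjusted p = 4e-87) and 2.1-fold lower under FX1 (-1.07 ± 0.014, adjusted p = 4.5e-144). With FX1 it rose slightly in GFP-high cells (0.06 ± 0.014, adjusted p = 4e-05) and fell in GFP-low cells (-0.49 ± 0.015, adjusted p = 6.4e-81). The difference between gates was -0.55 ± 0.02 (adjusted p = 3.5e-66).

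At 35.8%, the GC content of JCHAIN was the lowest of the 8, the others lying between 53.3% and 62.9%. When the trend on GC content and length was removed, the fall with FX1 in GFP-low cells ended as a call (-0.03, edgeR adjusted p = 0.069) and the rise in GFP-high cells grew (0.26, adjusted p = 9.2e-46). The gate differences of JCHAIN were -0.40 under DMSO and -0.69 under FX1 after this removal, and the difference of the FX1 effect was -0.29 (adjusted p = 2.1e-30). The lower level in the GFP-low gate and the unequal FX1 effect were therefore called both ways, and the call of FX1 within GFP-low cells depends on how this trend is treated. The gene shares 87 exon bases with a gene on the opposite strand that had 13 to 50 counts.

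MZB1 varied least. The libraries had 141, 141 and 140 CPM in GFP-high DMSO and 148, 152 and 149 CPM in GFP-high FX1. In GFP-low cells they had 143, 139 and 141 CPM under DMSO and 152, 145 and 146 CPM under FX1. FX1 and DMSO libraries did not overlap in either gate, while the gates overlapped under each treatment. The changes were small, 0.09 ± 0.023 (edgeR adjusted p = 0.0004) in GFP-high and 0.07 ± 0.023 (adjusted p = 0.0077) in GFP-low cells. The call in GFP-high cells was lost, and the sign in GFP-low cells turned, when the GC and length trend was removed (0.02, adjusted p = 0.57, and -0.14, adjusted p = 7.5e-09). The GFP-low call was also lost without any 1 of the GFP-high DMSO libraries (0.02, adjusted p = 0.4 to 0.42) or without GFP-low FX1 replicate 1 (0.05, adjusted p = 0.13). With all libraries it was lost by DESeq2 (0.06, adjusted p = 0.052). The same held with mitochondrial and the most abundant genes left out of the scaling (0.02, edgeR adjusted p = 0.35).

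**Figure D3:**
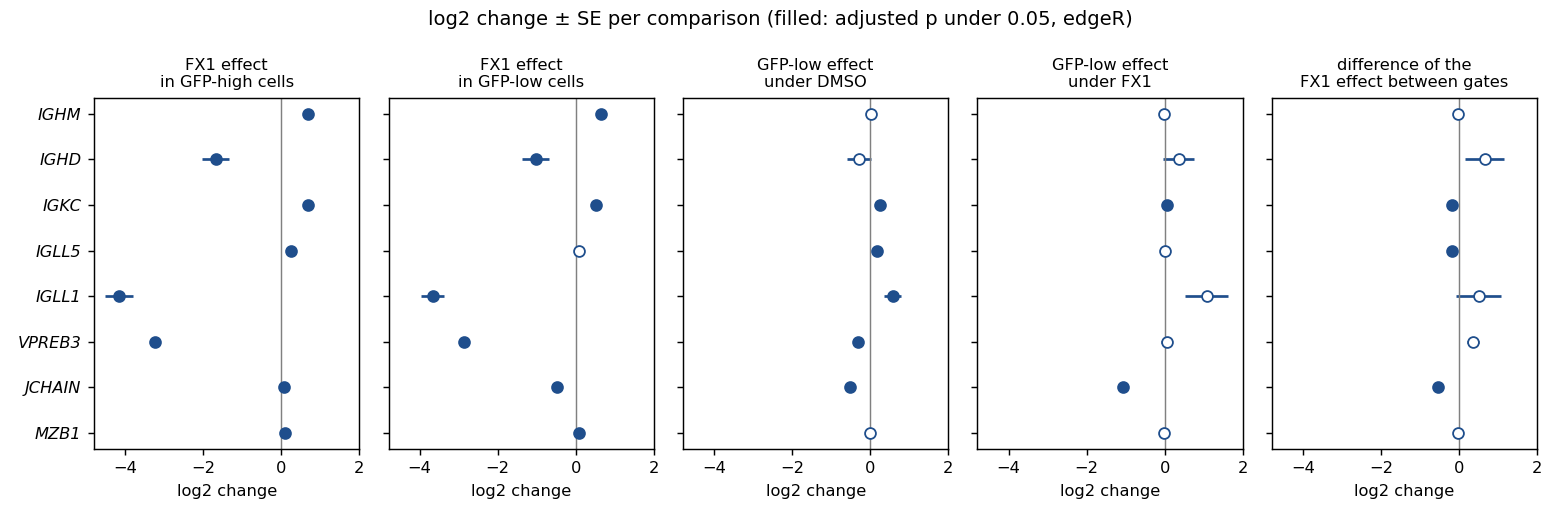
log2 change with its standard error (horizontal axes, the same scale in all panels) for each of the 8 genes in the 5 comparisons; filled points passed an adjusted p of 0.05 in edgeR and open points did not. VPREB3 and IGLL1 lie below -2.8 in both FX1 panels, whereas in the gate panels JCHAIN has the lowest value, -0.52 under DMSO and -1.07 under FX1.

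Between the gates, 3 of the 8 genes (IGKC, IGLL5 and IGLL1) were higher and 2 (VPREB3 and JCHAIN) lower in GFP-low than in GFP-high cells under DMSO, beside a background of 46.1% of all genes called (21.7% higher and 24.4% lower). Under FX1 IGKC was higher (0.06 ± 0.024, edgeR adjusted p = 0.016), JCHAIN was lower and 6 genes were not called, beside a background of 56.9% (30.2% higher and 26.7% lower). The IGKC call was lost by DESeq2 (0.05, adjusted p = 0.17), and without any 1 of the GFP-high DMSO libraries (0.02, adjusted p = 0.55 to 0.58), GFP-high FX1 replicate 2 (0.05, adjusted p = 0.12) or GFP-low FX1 replicate 1 (0.06, adjusted p = 0.052). Library ranges were separate for 5 genes under DMSO and 2 under FX1, and for 51.6% and 61.1% of all genes tested. Both gate comparisons share libraries with the FX1 comparisons and are not independent of them.

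The test of the difference of the FX1 effect called 3 of the 8 genes, IGKC, IGLL5 and JCHAIN, all lower in the sense of GFP-low minus GFP-high, beside a background of 31.3% (14.8% higher and 16.5% lower). Over all genes this comparison had 2636 higher and 2947 lower calls. Scaling without mitochondrial genes and those taking over 1% of a library gave 2038 higher and 3622 lower, so the split of directions depends on the scaling. The changes of IGKC and JCHAIN were called under either.

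**Figure D4:**
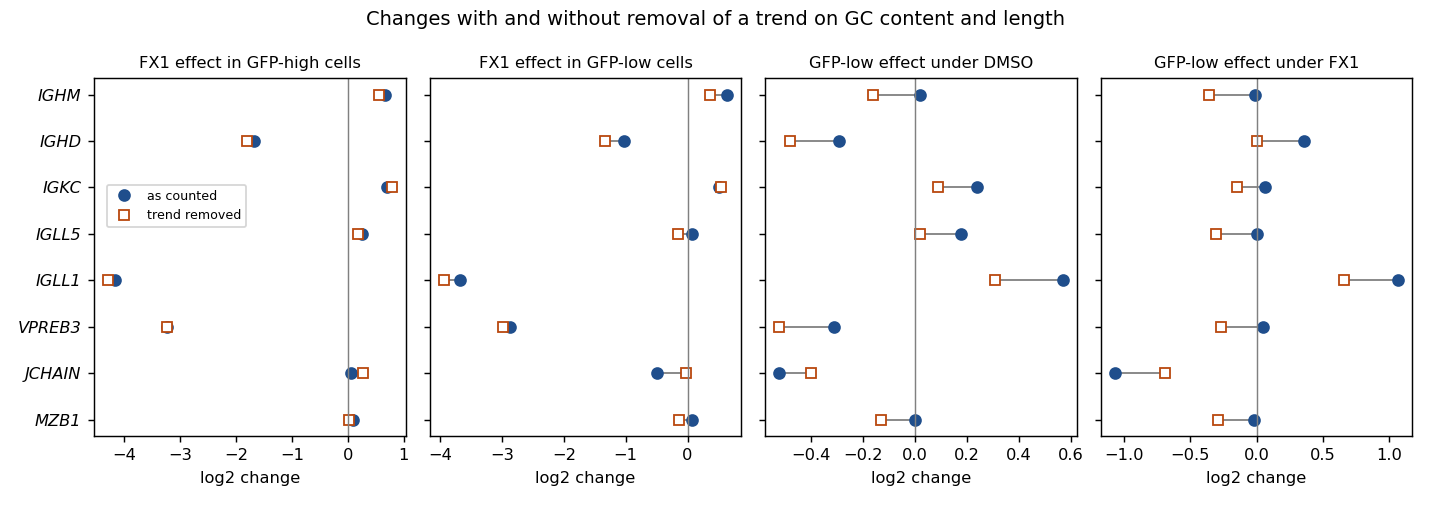
log2 change of the 8 genes as counted (circles) and after removal of a per-library trend on GC content and length (squares) in the 4 comparisons of 2 groups; the panels have different horizontal scales. VPREB3 and IGLL1 keep their fall with FX1, while JCHAIN moves from -0.49 to -0.03 with FX1 in GFP-low cells and IGHM from -0.01 to -0.36 in GFP-low against GFP-high under FX1.

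Per kilobase the order of the genes was wide. In GFP-high DMSO the level was 1284 ± 12.7 RPKM (SD, n = 3) for IGHM, 470 ± 2.12 for JCHAIN, 172 ± 4.66 for IGKC and 61.6 ± 0.267 for MZB1. VPREB3 followed at 41.6 ± 2.2 RPKM, IGLL5 at 21.1 ± 1.29, IGLL1 at 2.3 ± 0.3 and IGHD at 0.678 ± 0.0392. Neighbours in this order differed by more than their SDs. IGLL5 would stand at 37.4 RPKM if all its counts came from its 757 unshared bases, closer to VPREB3. In GFP-low FX1 the order differed, with IGKC at 289 ± 2.65 RPKM above JCHAIN at 234 ± 1.53, and VPREB3 at 4.54 ± 0.531 below IGLL5 at 24.9 ± 1.26.

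Genes of the wider pathway were read from lists in the same fit, given as counts with no test of a list. Among 13 other constant region genes 10 were tested. With FX1, 4 were higher and 4 lower in GFP-high cells, and 3 higher and 4 lower in GFP-low cells. Of all genes tested, 33.8% were higher and 34.6% lower in GFP-high cells, and 33.7% and 34.3% in GFP-low cells. Between gates 7 were higher and 1 lower in GFP-low cells under DMSO, and 6 higher and 2 lower under FX1. The shares over all genes were 21.7% higher and 24.4% lower under DMSO, and 30.2% and 26.7% under FX1. IGHA1 rose with FX1 (0.56 and 0.66 on the log2 scale in GFP-high and GFP-low cells) and was higher in GFP-low cells (0.85 under DMSO and 0.95 under FX1). IGHA2 showed 0.47, 0.50, 1.17 and 1.20 in the same order, all called, but its rise in GFP-low cells was not called without the GC and length trend (0.18, edgeR adjusted p = 0.1). IGLC3, a lambda constant gene, rose in GFP-high cells (0.31) and fell in GFP-low cells (-0.80), a difference of -1.11 ± 0.13 (edgeR adjusted p = 6.2e-14). IGHA1 and IGHA2, the IGHG genes, and the IGLC genes are near-identical copies whose reads can be split between rows, so single members are uncertain.

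The signal chains of the B-cell receptor, CD79A and CD79B, were both higher with FX1. CD79B rose from a mean of 204 to 267 CPM in GFP-high cells (0.39 ± 0.018, edgeR adjusted p = 2e-56) and from 262 to 350 CPM in GFP-low cells (0.42 ± 0.017, adjusted p = 1.3e-65). CD79A changed less, by 0.16 ± 0.017 in GFP-high and 0.09 ± 0.017 in GFP-low cells (adjusted p = 3.4e-17 and 3.3e-06), the latter turning to -0.15 without the GC and length trend.

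The 18 folding partners of the endoplasmic reticulum split with FX1. In GFP-high cells 8 were higher and 7 lower, beside 33.8% and 34.6% of all genes. In GFP-low cells 4 were higher and 10 lower, beside 33.7% and 34.3%. The medians were 0.02 and -0.09, beside -0.01 over all genes. SDF2L1, a part of the chaperone complex of HSPA5, rose in GFP-high cells (0.67) and in GFP-low cells (0.24). The latter turned to -0.10, not called, without the GC and length trend. DNAJB9, a cochaperone of HSPA5, fell by 0.22 in GFP-high and by 0.89 in GFP-low cells, the former not called without that trend (-0.06, edgeR adjusted p = 0.47). ERO1B, an oxidase that supplies disulfide bonds, fell by 0.20 and 0.72. In the test of the difference 14 of the 18 were lower and 0 higher, beside 16.5% of all genes called lower, and the count lower was 12 to 15 under the other scalings and with the trend removed.

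Of 18 regulators of immunoglobulin transcription and RNA processing 16 were tested. With FX1, 7 were higher and 6 lower in GFP-high cells, beside 33.8% and 34.6% of all genes. In GFP-low cells 6 were higher and 8 lower, beside 33.7% and 34.3%. PRDM1, the repressor that drives plasma cell differentiation and a known target of BCL6, rose by 2.04 ± 0.042 and 1.70 ± 0.034 (edgeR adjusted p = 4.7e-125 and 1.4e-126). SPIB, an ETS factor, rose by 1.33 and 0.93, and IRF4, a factor needed for plasma cells, fell by 1.44 and 2.28. In the test of the difference 2 were higher and 11 lower, beside 14.8% and 16.5% of all genes. The counts were also 2 and 11 under the other scalings, and 1 and 13 without the GC and length trend. Among the lower were PRDM1, SPIB and IRF4 (-0.34, -0.40 and -0.84). The octamer factors were looked up after their values were seen. POU2F2 (OCT2) rose by 0.79 and 0.77, and its coactivator POU2AF1 fell by 0.60 and 0.84.

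Recombination and hypermutation genes were mostly lower with FX1. Of 8 genes 5 were tested, with 1 higher and 4 lower in GFP-high cells and 0 higher and 4 lower in GFP-low cells. Of all genes tested, 33.8% were higher and 34.6% lower in GFP-high cells, and 33.7% and 34.3% in GFP-low cells. The mismatch repair gene MSH6 fell in both gates (-0.68 and -0.61).

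**Figure D5:**
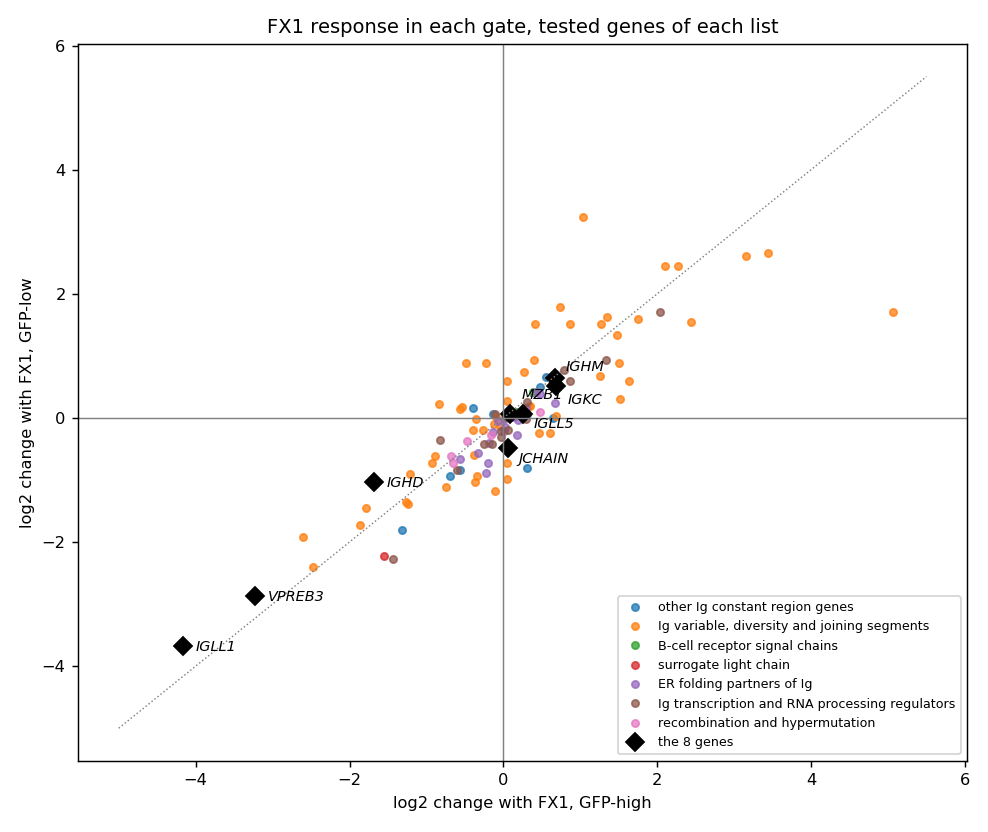
log2 change with FX1 in GFP-high cells (horizontal) against GFP-low cells (vertical) for the 8 genes (black diamonds) and the tested genes of 7 lists (coloured points), with the line of equal change. VPREB3 (-3.23 and -2.87) and IGLL1 (-4.17 and -3.67) lie at the lower left and IGHM and IGKC at the upper right; JCHAIN lies below the line.

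The genes whose pattern over the 12 libraries was most like that of each of the 8 were ranked by the root mean square distance between log2 CPM values centred on their means, among 10177 candidates. For IGHM these were GLYR1 (0.024), ELMO1 (0.026) and TNRC6A (0.035), which all rose with FX1 by 0.62 to 0.71. For IGKC they were MFN2 (0.037), DCTPP1 (0.041) and SCAMP3 (0.042), and for IGLL5 they were FOXP1 (0.046), UBA1 (0.051) and BANF1 (0.052). VPREB3 had no gene as close: CHI3L2 was at 0.200, DDIT4 at 0.278 and RETREG1 at 0.287, with log2 changes of -2.62 to -2.83 with FX1 in both gates. For JCHAIN they were CYBB (0.060), SLAMF1 (0.062) and LIN7C (0.083), and for MZB1 SYNRG (0.027), PRPF8 (0.029) and EXOSC10 (0.030). IGHD and IGLL1 were below the level set for this ranking. The distance is not scaled to counting noise or to the size of a change. VPREB3 held 50 to 114 counts in the FX1 libraries, so its larger distances do not show a more unusual pattern.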

How the data were processed

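RNA was sequenced from 12 libraries of Raji cells, 3 per GFP gate and treatment, after ribosomal RNA depletion (KAPA RNA HyperPrep with RiboErase), per the labels' protocols. The submitters' processing notes name FastQC, STAR with the hg38 build, featureCounts of Subread and R 4.2.1; versions of the other tools, the annotation and strand setting are not given in the sources used here. The authors deposited raw counts per gene, per the file headers. Without a strand setting, overlapping and antisense genes are uncertain. Of 60710 lines, 3 forming 1 broken record were left out; 60462 of 60707 genes (99.6%) had a symbol, and 0 count columns lacked a sample. No molecular identifiers are recorded, so reads are not independent molecules.

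Genes passing filterByExpr (17859) entered edgeR 4.0.16 under R 4.3.3: TMM scaling, a robust quasi-likelihood fit to all 12 libraries with 1 term per group (8 residual degrees of freedom), p-values adjusted by Benjamini-Hochberg over the 17859 genes and called under 0.05. All 8 genes passed the filter, IGLL1 only through its DMSO libraries. The common biological coefficient of variation was 1.67%, and pairs of replicates differed by 1.7 to 2.01 times the sampling variance. The gates are compared as GFP-low minus GFP-high and treatments as FX1 minus DMSO.

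Alternatives were DESeq2's size factors, DESeq2 1.42.0, no low-count filter, a minimum of 50 counts in 3 libraries, a fit to the compared groups alone, a block for the replicate number, scaling without mitochondrial genes and genes above 1%, scaling without immunoglobulin genes, removal of a GC and length trend (17557 genes, 98.3%), a 1.5-fold floor (glmTreat) and leaving out each library. The 8 genes and all lists were chosen with earlier results of these data known. Named genes are the 8, up to 3 called genes per list with the largest change at a mean log2 CPM of at least 2 (or a list's single gene), the 3 nearest in pattern and overlap partners; a few genes so chosen are not reported here by name; POU2F2, POU2AF1, ZNF318, the chromosome 22 neighbours, IGHV3-21, IGHJ6 and IGLV6-57 were chosen after their values were seen. Promoter sequences are from RefSeq.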

Additional observations from a re-analysis of the deposited data

Results flagged for a closer look

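The FX1 effect differed between the gates for 3 of the 8 genes by the test of the difference in edgeR (GFP-low minus GFP-high): JCHAIN by -0.55, IGKC by -0.18 and IGLL5 by -0.18 on the log2 scale. JCHAIN alone of these was called in opposite directions in the gates, and the fall in GFP-low cells was not called with the GC and length trend removed.

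Among the other genes named, the same test gave lower values for IGLC3 (-1.11), IGHV1-69 (-1.02), IRF4 (-0.84), DNAJB9 (-0.66), ERO1B (-0.53), SDF2L1 (-0.43), SPIB (-0.40), PRDM1 (-0.34), POU2AF1 (-0.24) and CD79A (-0.08). It gave higher values for IGHV3-21 (1.12), DERL3 (0.91), ZNF318 (0.29) and MSH6 (0.07). The MSH6 value was not called under 11 of 21 other settings, among them DESeq2 (0.05, adjusted p = 0.12) and leaving out any 1 of the GFP-high DMSO libraries (0.01 to 0.03). IGHV1-69 has a near-identical copy in the table, IGHV1-69D, and IGLC3 resembles IGLC2, so their reads can be split.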

How the results depend on the processing

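The falls of VPREB3 and IGLL1 and the rise of IGHM with FX1 were called in both gates under every alternative run, with ranges of -3.27 to -2.78, -5.08 to -3.49 and 0.36 to 0.69. Against a 1.5-fold floor the genes called were 3674 for FX1 in GFP-high and 3606 in GFP-low cells, 199 for the gate under DMSO, 728 under FX1 and 151 for the difference; of the 8 genes 5, 3, 0, 1 and 0 were called. Removing the GC and length trend raised the count among the 8 genes to 5 for the gate under FX1 and 5 for the difference. It also turned the direction of IGLL5 (-0.15), MZB1 (-0.14), CD79A (-0.15) and SDF2L1 (-0.10) for FX1 in GFP-low cells. It turned IGHM (-0.16), MZB1 (-0.13) and CD79A (-0.11) for the gate under DMSO, and IGKC (-0.15), SDF2L1 (-0.42), MSH6 (0.10), IGHV5-78 (-0.10) and IGHJ6 (-0.01) for the gate under FX1. CD79B turned in the difference (-0.12). With at least 50 counts required, IGHM (0.03) and CD79A (0.04) turned for the gate under FX1. The cause was not tested.

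Leaving out 1 library at a time gave 11475 to 12379 and 11440 to 12293 genes called for FX1 in GFP-high and GFP-low cells, 7451 to 8275 and 9387 to 10205 for the gate under DMSO and FX1, and 5167 to 5432 for the difference. Of the 8 genes 8, 5 to 7, 4 to 5, 1 to 3 and 2 to 4 were called in the same order, the value of 1 without GFP-low FX1 replicate 1. No alternative scaling moved the median of all genes by more than 0.1.

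Labels give the groups the same replicate numbers, but same-numbered libraries did not deviate together (correlations -0.037 to 0.018). With the replicate number as a block 12184, 12101, 8213, 10111 and 5536 genes were called, and no call among the 8 genes changed. Depth limits IGHD and IGLL1, which had at most 34 and 96 counts in a library.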

Other observations

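Variable and joining segments form the antigen-binding end of the chains. Of 389 segment rows 55 were tested, and the most counted were IGHV3-21 with 54.7% of all IGHV counts, IGKV3-20 with 49.5% of IGKV counts, IGLV6-57 with 75.8% of IGLV counts and IGHJ6 with 55.8% of IGHJ counts. With FX1, 18 segments were higher, 12 lower and 25 not called in GFP-high cells, and 23 higher, 12 lower and 20 not called in GFP-low cells. The background was 68.4% of all genes called (33.8% higher and 34.6% lower) in GFP-high cells. In GFP-low cells it was 68% (33.7% higher and 34.3% lower). By the rule for named genes, IGHV4-31 rose by 2.27 and 2.44, IGHV1-69 by 1.63 and 0.60 and IGHV5-78 by 1.27 and 1.52 in GFP-high and GFP-low cells. Group means of these 3 rows lay between 1.68 and 27.6 CPM. Whether they are part of an expressed heavy chain was not tested.

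IGHV3-21 stood at 113, 118 and 103 CPM in GFP-high DMSO and at 95.7, 94.5 and 95.2 CPM in GFP-high FX1. It stood at 62.9, 61.2 and 63.9 CPM in GFP-low DMSO and at 116, 119 and 112 CPM in GFP-low FX1. It therefore fell with FX1 in GFP-high cells (-0.23 ± 0.029, edgeR adjusted p = 3.9e-13), rose in GFP-low cells (0.89 ± 0.031, adjusted p = 1.9e-73) and was lower in GFP-low cells under DMSO (-0.83 ± 0.032, adjusted p = 1.8e-66). Per 100 IGHM counts it had 4.64 ± 0.351 (SD, n = 3), 2.49 ± 0.0249, 2.58 ± 0.0914 and 3.06 ± 0.0845 in GFP-high DMSO, GFP-high FX1, GFP-low DMSO and GFP-low FX1.

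IGHJ6 rose with FX1 by 0.64 and 0.59 in GFP-high and GFP-low cells, and its count per 100 IGHM counts was 0.975 ± 0.0312, 0.956 ± 0.0636, 1.16 ± 0.0429 and 1.13 ± 0.0488 (SD, n = 3). IGLV6-57, a lambda segment, was higher in GFP-low cells by 0.82 under DMSO and 0.68 under FX1. ZNF318, a protein known to be needed for IgD transcripts, was looked up because IGHD fell. ZNF318 fell with FX1 by 0.72 ± 0.028 in GFP-high and by 0.43 ± 0.029 in GFP-low cells (edgeR adjusted p = 3.1e-67 and 7.7e-34). Under DMSO, ZNF318 was also lower in GFP-low than in GFP-high cells (-0.34, edgeR adjusted p = 2.6e-25). IGHD was not called in that comparison (-0.29, edgeR adjusted p = 0.47). Under FX1 the gate difference was called for neither gene (-0.05 for ZNF318 and 0.36 for IGHD). Whether ZNF318 has a part in the fall of IGHD was not tested.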
